A study of Mus musculus with 24 samples.

Results

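The genes examined were 9 regulators of ubiquitin signalling that restrain T cell activation or set the threshold of NF-κB signalling, Cblb, Cbl, Itch, Rnf128, Peli1, Tnfaip3, Tnip1, Traf6 and Ndfip1. They were chosen by symbol, as the rows of the raw count table whose mouse Ensembl identifier belongs to these names, a rule that uses no measured value, although earlier results of these data were known when the list was made. All 9 were found among the 54446 genes of the table, and all 9 passed the filter on low counts that left 15325 genes for testing. RNA was sequenced from splenic CD4+ T cells of 6 mice on a C57BL6 background, with mice 1, 3 and 4 of the wild type (WT) and mice 1, 2 and 4 of the genotype Aim2-/-, 3 for each by their labels. Aim2-/- mice lack AIM2, a cytosolic sensor of double-stranded DNA. Each mouse gave cells left without stimulation (0 h) and cells kept for 3, 6 or 24 h with antibodies to CD3 and CD28, so that 24 libraries form 8 groups of 3 mice. Cells cultured for 3, 6 or 24 h without the antibodies were not analysed here, so stimulation and time in culture cannot be told apart. Per the general methods of the study, the Aim2-/- mice were bought as a deficient line and matched to WT mice by sex and age, and CD4+ T cells were enriched by magnetic removal of other cells. No Cre or transgene is named, and the age of the mice is not given in the sources used here.

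T cell anergy is the state in which a T cell that met antigen without enough costimulation stays unresponsive, and ubiquitin ligases are known to hold it in place. CBL-B and c-CBL are RING ligases that tag kinases and adaptors near the T cell receptor, ITCH is a HECT ligase that is switched on by the membrane adaptor NDFIP1, and GRAIL, the product of Rnf128, is a RING ligase of endosomal membranes first known from anergic T cells. A second arm acts on NF-κB, where TRAF6 builds ubiquitin chains that recruit the kinases TAK1 and IKK, A20 (Tnfaip3) edits and removes such chains, ABIN1 (Tnip1) brings A20 to its substrates, and Pellino-1 (Peli1) is a ligase that limits c-Rel in T cells.

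The promoters of Tnfaip3 and Tnip1 are printed because these are the members that were lower at 3 h in both genotypes, and because both genes are textbook targets of NF-κB. Both stretches are RefSeq sequence of GRCm38.p6 on the minus strand, written from the distal end to the base before the start of transcription, with capitals for matches to the kappaB consensus and to TGANTCA, the AP-1 core. The stretch of Tnfaip3 is chr10:19015411-19015547, and the 113 bases beyond it, up to 19015660, were left out because GENCODE places an alternative first exon there. The stretch of Tnip1 is chr11:54962941-54963190, which holds no annotated exon.
Tnfaip3: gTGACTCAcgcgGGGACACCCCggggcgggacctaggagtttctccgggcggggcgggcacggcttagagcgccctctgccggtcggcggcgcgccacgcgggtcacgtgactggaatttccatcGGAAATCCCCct
Tnip1: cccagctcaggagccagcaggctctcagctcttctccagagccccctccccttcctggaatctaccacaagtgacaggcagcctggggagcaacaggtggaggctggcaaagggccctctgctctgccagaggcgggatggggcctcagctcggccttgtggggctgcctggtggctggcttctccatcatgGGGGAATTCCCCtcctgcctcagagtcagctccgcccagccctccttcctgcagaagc
A kappaB match was present in 3.90% of 32851 RefSeq windows of 250 bases upstream of a start, counted on both strands, and in 2 of the 8 windows that 7 of the members have, which are those of Tnfaip3 and Tnip1. In Tnip1 the matches overlap each other, since the 12 capital letters read the same on both strands. The core TGANTCA was in 6.75% of all windows and in 1 of the 8, Tnfaip3, and GGGNNTTCC was in 4.98% of all windows and in 3 of the 8, where it overlaps the kappaB match except in Cblb. The NFAT core GGAAA was in 55.6% of all windows and in 4 of the 8. A match of letters describes the sequence and does not show that a factor binds there.

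The check of the knocked-out gene comes before any genotype result. CPM are counts scaled to a common library size after TMM normalisation. Aim2 lay at 21.5, 75.0 and 67.5 CPM in WT mice 1, 3 and 4 at 0 h and at 15.7, 20.1 and 19.0 CPM in Aim2-/- mice 1, 2 and 4. The mouse labelled WT 1 had 17.0, 11.5 and 5.57 CPM at 3, 6 and 24 h, values near those of the Aim2-/- mice and not those of WT 3 and WT 4, which lay between 32.5 and 52.3 CPM. The label of mouse WT 1 is therefore contradicted by its Aim2 level at all 4 times, and the tests that use WT cells were repeated without it. The libraries held between 19715161 and 21627018 counts. CD4+ T cell markers were at 2755 to 4032 CPM in sum in every library with none of the 6 at 0, as the cell label says. Markers of other cells were present at lower levels. At 0 h the sums for myeloid, B, NK, and basophil and mast cells were higher in the Aim2-/- libraries. Those for erythroid and CD8 T cells overlapped between the genotypes, as given beside the genotype results. Since these are bulk samples, fewer cells of a kind and less RNA per cell cannot be told apart.

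**Figure D1:**
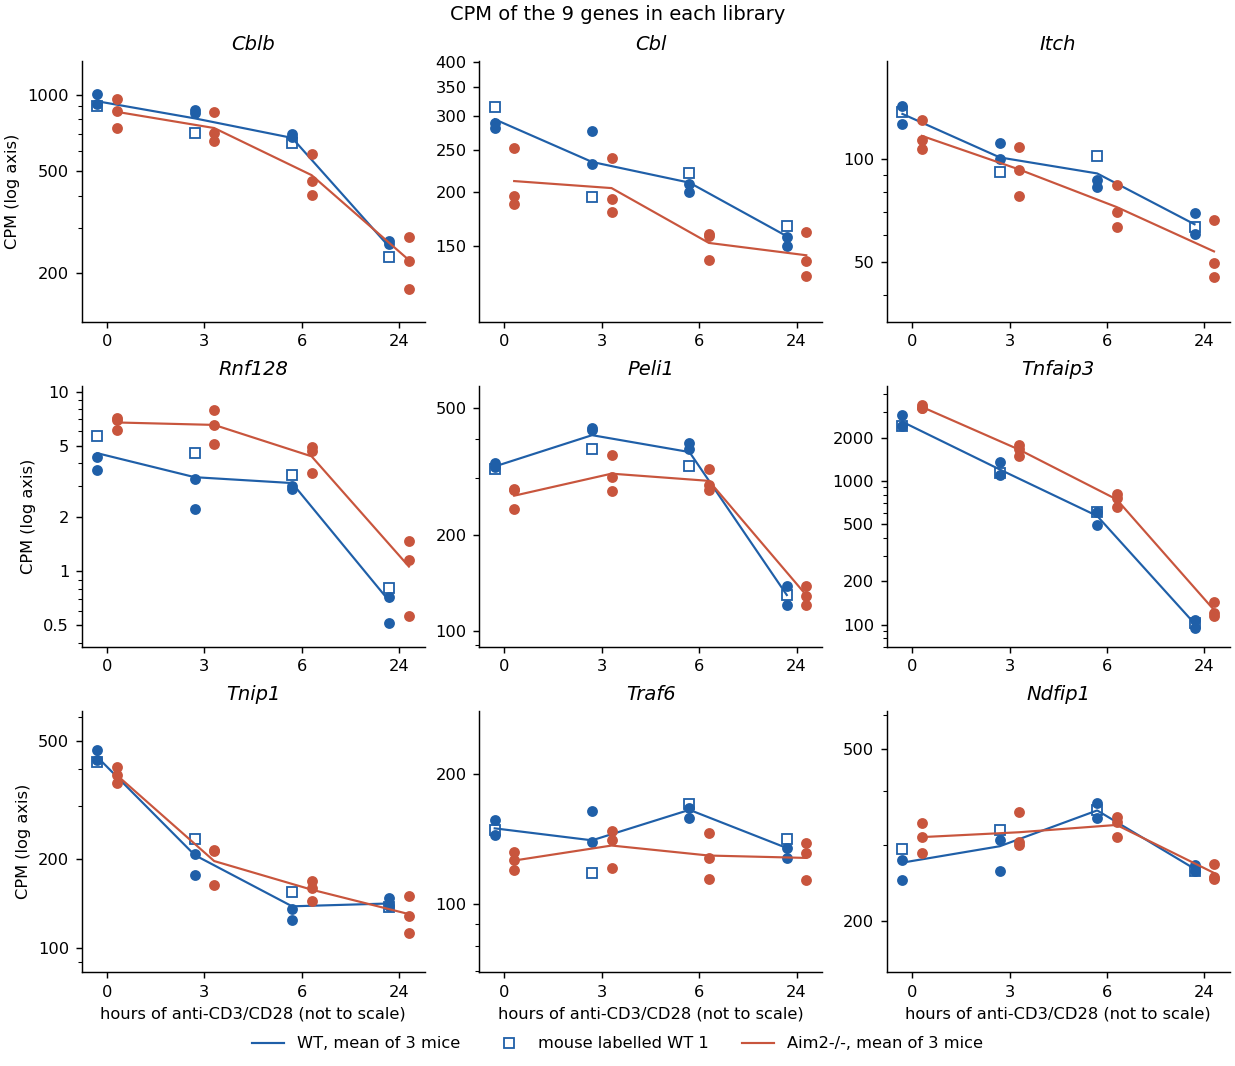
CPM (log axis) of each gene at 0, 3, 6 and 24 h, with 1 point per library, lines through the means of 3 mice, WT in blue, Aim2-/- in red and open squares for the mouse labelled WT 1. Tnfaip3 fell at every step in all 6 mice, Peli1 was higher at 3 h than at 0 h in all 6 mice before it fell by 24 h, and Traf6 stayed between 114 and 171 CPM.

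Most of the 9 genes were lower after stimulation. In WT cells 4 of the 9 genes passed the test for 3 h, 6 for 6 h and 7 for 24 h, and in Aim2-/- cells 2, 5 and 8 did. Only Peli1 at 3 h and Ndfip1 at 6 h, both in WT cells, were higher among these calls. For 3 h in WT cells 1 gene was higher, where 16.2% of all tested genes were, and 3 were lower, where 16.4% were. At 6 h in WT cells 1 gene was higher against 26.4% and 5 were lower against 24.8% of all genes. At 24 h none was higher against 36.6% and 7 were lower against 34.8%, so that the share of falling genes stood above the background most clearly at this time. In Aim2-/- cells 0 genes were higher and 2 lower at 3 h (all genes 16.1% and 14.6%), 0 higher and 5 lower at 6 h (28.5% and 22.7%), and 0 higher and 8 lower at 24 h (36.8% and 33.5%). The median log2 fold change of the 9 genes was -0.33, -0.49 and -1.34 in WT cells at 3, 6 and 24 h, beside medians of 0.02, 0.02 and -0.01 over all tested genes, and -0.05, -0.62 and -1.12 in Aim2-/- cells, beside 0.02, 0.08 and 0.03. Without the mouse labelled WT 1 the WT counts were 3, 5 and 7, where 22.4%, 43.7% and 64.1% of all genes passed in either direction. Scaling by library totals alone moved the median of all genes by 0.107 at 3 h in WT cells and by 0.116 and 0.120 at 3 and 6 h in Aim2-/- cells, in log2 units, which is more than some of the smaller changes below.

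Tnfaip3 gave the largest change of the 9 genes. In WT cells Tnfaip3 was at 2418, 2425 and 2889.7 CPM before stimulation, 1137, 1105 and 1360.0 after 3 h, 605, 494 and 611 after 6 h and 102, 94.4 and 108 after 24 h, each in the order of mice 1, 3 and 4. The Aim2-/- cells gave 3384, 3202 and 3232 CPM before stimulation, 1774, 1670.3 and 1501 after 3 h, 764, 808 and 658 after 6 h and 143, 121 and 115 after 24 h, in the order of mice 1, 2 and 4. Ordered by their means, the 8 groups formed a staircase in which no neighbouring groups overlapped, with the Aim2-/- group above the WT group at each time. A20, which this gene encodes, is a ubiquitin-editing enzyme that shuts down signalling from TNF and antigen receptors. The log2 fold change from 0 h, given here and below ± its SE, was -1.10 ± 0.12 (adjusted p = 4.21e-07), -2.18 ± 0.12 (adjusted p = 2.41e-11) and -4.67 ± 0.14 (adjusted p = 6.97e-16) in WT cells for 3, 6 and 24 h. The same times gave -0.99 ± 0.12 (adjusted p = 2.49e-06), -2.14 ± 0.12 (adjusted p = 5.76e-11) and -4.70 ± 0.14 (adjusted p = 7.51e-16) in Aim2-/- cells. At 24 h the level was 23.6- to 28.2-fold lower than at 0 h within each of the 6 mice. Both single steps after 3 h were called too. From 3 to 6 h the change was -1.07 in WT and -1.15 in Aim2-/- cells, and from 6 to 24 h -2.49 and -2.56 (log2, highest adjusted p = 3.76e-06).

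Tnip1, which encodes the A20-binding adaptor ABIN1, fell as early as Tnfaip3 and changed less afterwards. WT cells held Tnip1 at 423, 432 and 465 CPM before stimulation, 233, 176 and 208 after 3 h, 155, 124 and 136 after 6 h and 138, 139 and 147 after 24 h. Aim2-/- cells held 360.2, 406 and 382 CPM before stimulation, 212, 213 and 164 after 3 h, 169, 159 and 144 after 6 h and 112, 149.6 and 129 after 24 h. All 0 h libraries lay above all stimulated ones, while the ranges of the 6 h and 24 h groups overlapped in WT and in Aim2-/- cells. Against 0 h the log2 fold change was -1.10 ± 0.12 (adjusted p = 6.54e-07), -1.67 ± 0.12 (adjusted p = 7.14e-10) and -1.64 ± 0.12 (adjusted p = 1.4e-10) in WT cells at 3, 6 and 24 h. The Aim2-/- values were -0.96 ± 0.12 (adjusted p = 4.95e-06), -1.28 ± 0.12 (adjusted p = 3.53e-08) and -1.55 ± 0.12 (adjusted p = 3.98e-10). The step from 3 to 6 h was called in WT cells with a log2 change of -0.57 ± 0.12 (adjusted p = 0.00143), and in Aim2-/- cells it was -0.32 ± 0.12 (adjusted p = 0.0595) and passed with mouse as a block (adjusted p = 0.0178), with RLE factors, DESeq2, no filter or a mean of at least 1 CPM (adjusted p from 0.0216 to 0.0387). From 6 to 24 h Tnip1 passed the test in neither genotype, although in Aim2-/- cells the blocked fit gave -0.28 ± 0.10 (adjusted p = 0.0207) and scaling by library totals -0.37 ± 0.12 (adjusted p = 0.0158). The ratio of Tnfaip3 to Tnip1, both per length in RPKM, had a median of 3.45 over the 6 mice before stimulation, 3.52 after 3 h, 2.21 after 6 h and 0.379 after 24 h, with a range of 2.75 to 4.60 before and 0.332 to 0.625 after 24 h, so the order of the enzyme and its adaptor was turned around in every mouse. Leaving out WT 1 gave medians of 3.86 before stimulation and 0.396 after 24 h.

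Peli1 followed another course, with a small early rise before a fall. In WT cells Peli1 was at 320.3, 326 and 335 CPM before stimulation, 372, 425 and 433 after 3 h, 329, 372 and 388 after 6 h and 129, 120.1 and 139 after 24 h. The Aim2-/- libraries of Peli1 gave 241, 275 and 279 CPM before stimulation, 274, 354 and 303 after 3 h, 275, 322 and 287 after 6 h and 138, 129 and 120.4 after 24 h. It was higher at 3 h and at 6 h than at 0 h within each of the 6 mice and lower at 24 h in each, by 1.74- to 2.71-fold. At 3 h the log2 fold change was 0.33 ± 0.10 (adjusted p = 0.0146) in WT and 0.23 ± 0.10 (adjusted p = 0.0875) in Aim2-/- cells. The WT call was lost without WT 3 (adjusted p = 0.186), without WT 4 (0.158) and with no filter (0.0501), and it held without WT 1 (0.0359). The Aim2-/- value was called with mouse as a block (adjusted p = 0.0323) and with scaling by library totals (0.00596). The 6 h values, 0.15 ± 0.10 (adjusted p = 0.219) and 0.15 ± 0.10 (adjusted p = 0.204), passed only under library totals, where they were 0.24 and 0.27 (adjusted p = 0.0333 and 0.0156). At 24 h Peli1 had fallen with a log2 change of -1.34 ± 0.10 (adjusted p = 1.55e-10) in WT and -1.04 ± 0.10 (adjusted p = 9.03e-09) in Aim2-/- cells. The fall below the level of 0 h came after 6 h, with log2 steps from 6 to 24 h of -1.49 and -1.19 (adjusted p = 2.16e-10 and 7.5e-09). From 3 to 6 h the level already went down in each WT mouse and in Aim2-/- mice 2 and 4, a step called in neither genotype.

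Traf6, the ligase that promotes NF-κB signalling, was the steadiest of the 9 genes. In WT cells Traf6 lay at 148, 145 and 156 CPM before stimulation, 118, 139 and 164 after 3 h, 171, 158 and 167 after 6 h and 142, 135 and 128 after 24 h. For Aim2-/- cells the level of Traf6 was 120.3, 132 and 126 CPM before stimulation, 122, 148 and 141 after 3 h, 114, 146 and 128 after 6 h and 131, 139 and 114 after 24 h. Among the stimulated groups none was called against 0 h, although WT cells at 24 h passed with only the libraries compared (adjusted p = 0.0364), and 6 of the 7 neighbouring groups in the order of its levels overlapped. The log2 fold changes from 0 h were -0.09, 0.14 and -0.15 in WT cells, with 95% intervals of -0.30 to 0.12, -0.07 to 0.35 and -0.36 to 0.06. The Aim2-/- estimates were 0.11, 0.04 and 0.02, with intervals of -0.10 to 0.33, -0.17 to 0.25 and -0.19 to 0.23, and the signs of these small values at 3 h in WT and at 6 and 24 h in Aim2-/- cells depended on the scaling. A decrease from 6 to 24 h was called in WT cells with a log2 change of -0.29 ± 0.11 (adjusted p = 0.0255), a call lost without any 1 of the 3 WT mice (adjusted p from 0.056 to 0.109), and the WT step from 3 to 6 h was called only with mouse as a block, with a log2 change of 0.24 ± 0.09 (adjusted p = 0.047).

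Cblb, the CBL family member most closely tied to anergy, kept most of its level through 6 h and lost it by 24 h. In WT cells Cblb was at 905, 915 and 1002 CPM before stimulation, 709, 866 and 844 after 3 h, 646, 683 and 699 after 6 h and 231, 259.5 and 266 after 24 h. Cells of Aim2-/- mice held Cblb at 739, 962 and 864 CPM before stimulation, 654, 853 and 709 after 3 h, 403, 586 and 459 after 6 h and 173, 276 and 223 after 24 h. All 24 h libraries lay below all others, and the other neighbouring groups overlapped except for WT and Aim2-/- at 6 h. The 3 h changes, -0.22 ± 0.15 (adjusted p = 0.287) in WT and -0.21 ± 0.15 (adjusted p = 0.329) in Aim2-/- cells, were called only with mouse as a block (adjusted p = 0.0141 and 0.0217). At 6 h the log2 fold change was -0.48 ± 0.15 (adjusted p = 0.0119) in WT cells and -0.82 ± 0.15 (adjusted p = 0.00012) in Aim2-/- cells, and the WT call was lost without any 1 of the 3 WT mice (adjusted p = 0.0601 without WT 1, 0.0578 without WT 3 and 0.0895 without WT 4). At 24 h it was -1.90 ± 0.16 (adjusted p = 6.17e-10) and -1.93 ± 0.16 (adjusted p = 6.2e-10), a level 3.49- to 4.26-fold lower within each of the 6 mice. From 3 to 6 h Cblb fell with a log2 change of -0.61 ± 0.15 (adjusted p = 0.00619) in Aim2-/- cells, which became 0.0608 in adjusted p without Aim2-/- 4, and in WT cells that step was called only with the block, with a log2 change of -0.25 ± 0.07 (adjusted p = 0.00861).

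Cbl, its close relative, moved over a narrower range. In WT cells Cbl was at 314, 281 and 289 CPM before stimulation, 195, 233 and 277 after 3 h, 222, 201 and 209 after 6 h and 167, 157 and 151 after 24 h. Cbl in Aim2-/- cells stood at 196, 253 and 188 CPM before stimulation, 193, 240.2 and 180.1 after 3 h, 160.4, 159 and 139 after 6 h and 139, 162 and 128 after 24 h. The 3 WT libraries of 0 h were the highest, and those of 3 h spread across the range of the 6 h libraries. At 6 h the log2 fold change was -0.49 ± 0.13 (adjusted p = 0.00364) in WT and -0.47 ± 0.13 (adjusted p = 0.00462) in Aim2-/- cells, and at 24 h -0.90 ± 0.13 (adjusted p = 3.23e-06) and -0.57 ± 0.13 (adjusted p = 0.000634). The 3 h value in WT cells, -0.33 ± 0.13 (adjusted p = 0.0605), was called with mouse as a block (adjusted p = 0.00827), with DESeq2 (0.0427), with limma-voom (0.0497), without WT 4 (0.0393) and without Aim2-/- 2 (0.0197). That in Aim2-/- cells was -0.05 with an interval of -0.31 to 0.20 and changed sign under library totals. In the step from 3 to 6 h Cbl was lower in Aim2-/- cells with a log2 change of -0.42 ± 0.13 (adjusted p = 0.0239), and in that from 6 to 24 h in WT cells with a log2 change of -0.41 ± 0.13 (adjusted p = 0.0109). The former call was lost without any 1 of the 3 Aim2-/- mice (adjusted p from 0.0562 to 0.102), and the latter without WT 3 (0.0546) or WT 4 (0.0616). The ratio of Cblb to Cbl in RPKM had a median of 4.27 over the 6 mice at 0 h and 1.98 at 24 h, and the ranges, 3.39 to 5.41 and 1.47 to 2.08, did not overlap, with medians of 4.45 and 2.01 without the mouse labelled WT 1.

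Itch, the HECT ligase whose loss causes the itchy phenotype of mice, declined over the time course. In WT cells Itch was at 137, 126 and 143 CPM before stimulation, 91.9, 99.8 and 112 after 3 h, 102, 83.1 and 87.0 after 6 h and 63.5, 69.8 and 60.3 after 24 h. Itch reached, in Aim2-/- cells, 107, 129.8 and 114 CPM before stimulation, 93.2, 108 and 78.2 after 3 h, 69.9, 84.1 and 63.4 after 6 h and 45.2, 66.3 and 49.8 after 24 h. It was lower than at 0 h in each of the 6 mice at 3, 6 and 24 h, though neighbouring groups overlapped in all 7 cases. The log2 fold change at 3 h was -0.42 ± 0.14 (adjusted p = 0.0237) in WT cells, a call lost without any 1 of the 3 WT mice (adjusted p = 0.179 without WT 1, 0.0996 without WT 3 and 0.0773 without WT 4) and under library totals (0.0753). The Aim2-/- change at 3 h, -0.33 ± 0.14 (adjusted p = 0.0838), passed with mouse as a block (adjusted p = 0.00772) and without Aim2-/- 2 (0.0393). At 6 h it was -0.58 ± 0.14 (adjusted p = 0.00151) in WT and -0.69 ± 0.14 (adjusted p = 0.000317) in Aim2-/- cells, and at 24 h -1.07 ± 0.14 (adjusted p = 7.36e-07) and -1.12 ± 0.14 (adjusted p = 4.54e-07). Between 6 and 24 h Itch was lower with a log2 change of -0.49 ± 0.14 (adjusted p = 0.00506) in WT cells, with adjusted p = 0.0849 without the mouse labelled WT 1, and with a log2 change of -0.43 ± 0.14 (adjusted p = 0.0138) in Aim2-/- cells, where adjusted p = 0.104 without Aim2-/- 1. The Aim2-/- step from 3 to 6 h, -0.36 ± 0.14 (adjusted p = 0.0649), passed with mouse as a block (adjusted p = 0.00536), with RLE factors, DESeq2, no filter or a mean of at least 1 CPM (adjusted p from 0.0162 to 0.0485).

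Ndfip1, whose product activates ITCH and other NEDD4-family ligases at endosomal membranes, did not follow its partner down. In WT cells Ndfip1 was at 294, 249 and 277 CPM before stimulation, 325, 309 and 261 after 3 h, 361, 375 and 347 after 6 h and 262, 269 and 262 after 24 h. Aim2-/- libraries held Ndfip1 at 338, 288 and 314 CPM before stimulation, 305, 301 and 358 after 3 h, 314, 339 and 349 after 6 h and 254, 251 and 272 after 24 h. The WT libraries of 6 h were above those of 0 h and 24 h, whereas the Aim2-/- libraries of 24 h were below those of every other time. The log2 fold change at 6 h was 0.40 ± 0.09 (adjusted p = 0.000894) in WT and 0.09 ± 0.09 (adjusted p = 0.412) in Aim2-/- cells, and the WT call was lost without WT 3 (adjusted p = 0.0789). At 24 h it was -0.05 in WT cells, with an interval of -0.23 to 0.13, and -0.27 ± 0.09 (adjusted p = 0.0111) in Aim2-/- cells, a call lost without Aim2-/- 1 (adjusted p = 0.108). At 3 h it was 0.13 and 0.04, with intervals of -0.05 to 0.30 and -0.14 to 0.22. In WT cells the level went up from 3 to 6 h with a log2 change of 0.27 ± 0.09 (adjusted p = 0.0307), a call lost without WT 3 (adjusted p = 0.186), without WT 4 (0.261), with no filter (0.111) and under library totals (0.0505). It went down from 6 to 24 h with a log2 change of -0.45 ± 0.09 (adjusted p = 0.000278) in WT and -0.37 ± 0.09 (adjusted p = 0.00192) in Aim2-/- cells. The ratio of Ndfip1 to Itch in RPKM had a median of 3.35 before stimulation, 4.88 after 3 h, 6.54 after 6 h and 6.50 after 24 h, and the range of 5.80 to 8.61 after 24 h lay above that of 2.97 to 4.84 at 0 h. Leaving out WT 1 gave medians of 3.40 at 0 h and 6.67 at 24 h.

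Rnf128, the GRAIL gene, was the least abundant of the 9, with 10 to 185 counts per library. In WT cells Rnf128 was at 5.65, 3.67 and 4.31 CPM before stimulation, 4.53, 2.22 and 3.27 after 3 h, 3.46, 2.87 and 2.97 after 6 h and 0.81, 0.719 and 0.513 after 24 h. The values of Rnf128 in Aim2-/- cells were 7.11, 6.99 and 6.1 CPM before stimulation, 7.95, 6.55 and 5.08 after 3 h, 4.92, 4.66 and 3.51 after 6 h and 1.47, 1.16 and 0.564 after 24 h. All libraries of 24 h lay below all libraries of earlier times, 4.85- to 10.8-fold lower than at 0 h in the same mouse. The log2 fold change at 24 h was -2.73 ± 0.32 (adjusted p = 1.71e-07) in WT and -2.65 ± 0.31 (adjusted p = 1.56e-07) in Aim2-/- cells, of which -2.18 and -2.03 came after 6 h (adjusted p = 8.3e-06 and 1.36e-05). The 6 h values were -0.55 ± 0.29 (adjusted p = 0.117) and -0.62 ± 0.28 (adjusted p = 0.0704), and both passed with mouse as a block (adjusted p = 0.0202 and 0.00443). The WT value passed only there. The Aim2-/- value also passed with DESeq2, limma-voom, only the libraries compared or RLE factors (adjusted p from 0.0224 to 0.0456). The step from 3 to 6 h in Aim2-/- cells passed with the block as well, with a log2 change of -0.57 ± 0.18 (adjusted p = 0.0168). At 3 h the values were -0.44 and -0.04, with wide intervals of -1.0 to 0.12 and -0.59 to 0.50.

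**Figure D2:**
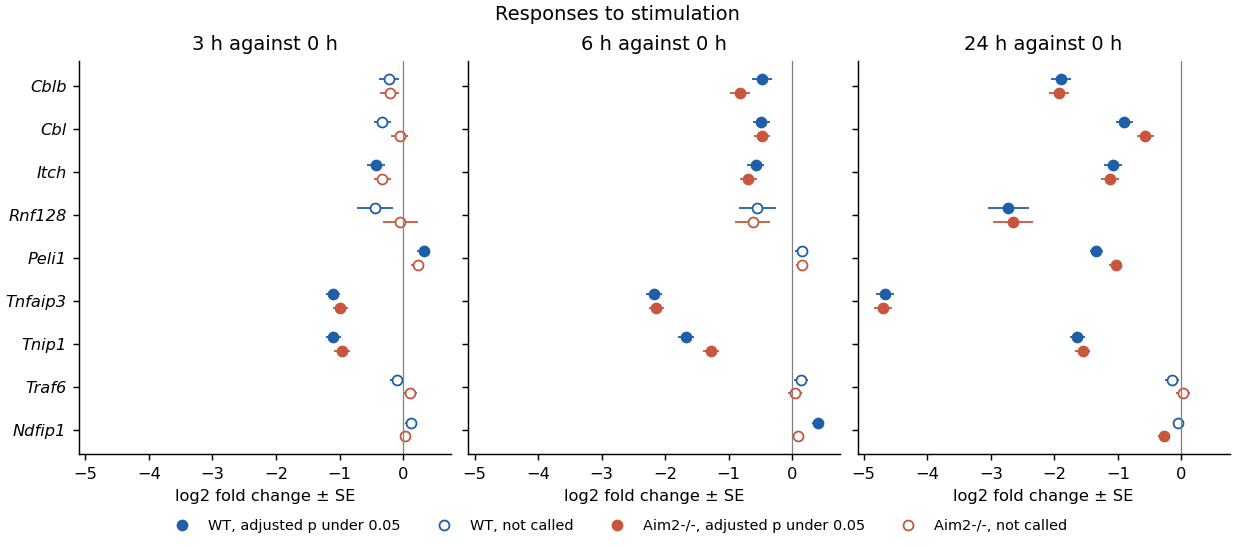
Log2 fold change ± SE of the 9 genes at 3, 6 and 24 h against 0 h in WT (blue) and Aim2-/- (red) cells, with filled points for an adjusted p under 0.05. At 24 h the values ran from -4.70 for Tnfaip3 to near 0 for Traf6, and the genotypes lay side by side.

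Between neighbouring times, most decreases were called from 6 to 24 h. From 3 to 6 h 1 of the 9 genes was higher in WT cells, where 14.2% of all genes were, and 2 were lower, where 11.5% were. Among Aim2-/- libraries 0 were higher against 13.4% and 3 were lower against 9.89%. With mouse as a block these totals were 5 of 9 in WT and 6 of 9 in Aim2-/- cells, where 36.1% and 35.5% of all genes passed with the block. For 3 h against 0 h in Aim2-/- cells the block raised the total from 2 to 5, where 41.2% of all genes passed with it. From 6 to 24 h 0 genes were higher and 8 lower in WT cells, where 29.6% and 28.0% of all genes were, and 6 of 9 passed without the mouse labelled WT 1 (47.5% of all genes). Over that step 0 were higher and 6 lower in Aim2-/- cells, against 27.4% and 27.0%.

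Levels of different genes were compared per length, in RPKM over the union of exons. At 0 h in WT cells the order was Tnfaip3 (357 ± 37.4 RPKM, SD, n = 3), Tnip1 (124 ± 6.33), Cblb (89.8 ± 5.07), Peli1 (49.9 ± 1.17), Ndfip1 (43.2 ± 3.55), Cbl (23.9 ± 1.42), Traf6 (19.0 ± 0.75), Itch (14.0 ± 0.872) and Rnf128 (1.31 ± 0.292). At 24 h in WT cells Ndfip1 (41.8 ± 0.664 RPKM) and Tnip1 (40.0 ± 1.42) led, with lowest and highest libraries that overlapped, followed by Cblb (24.1 ± 1.77), Peli1 (19.7 ± 1.41), Traf6 (17.1 ± 0.866), Tnfaip3 (14.1 ± 0.957), Cbl (12.8 ± 0.672), Itch (6.65 ± 0.499) and Rnf128 (0.197 ± 0.044). Tnfaip3 thus went from the first place to the sixth. The Aim2-/- level went from 453 ± 13.5 to 17.5 ± 2.08 RPKM. With the longest transcript as the length, Itch and Traf6 changed places at 0 h. Without the mouse labelled WT 1 the order of the 9 genes was the same at 0 h and at 24 h.

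**Figure D3:**
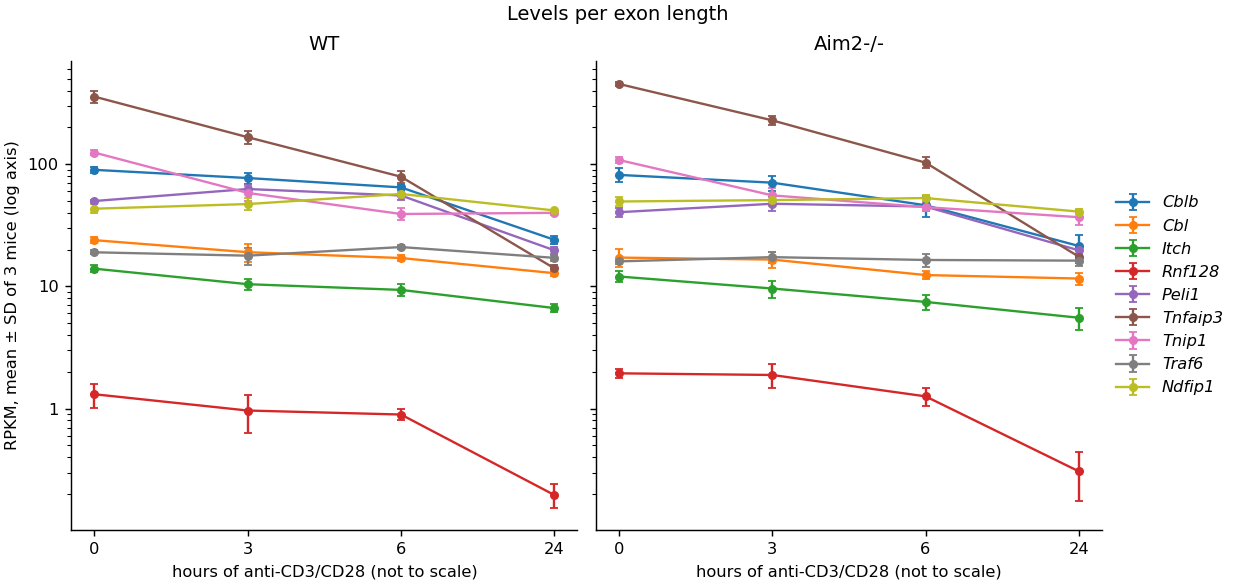
Mean RPKM ± SD of 3 mice (log axis) of the 9 genes at 0, 3, 6 and 24 h in WT (left) and Aim2-/- cells (right). The line of Tnfaip3 starts on top at 357 RPKM in WT cells and crosses those of 5 other genes on its way to 14.1 RPKM.

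The genotype comparison asks whether loss of Aim2 changes these genes. At 0 h 1 of the 9 genes was called, against 5.23% of all genes, and at 3 h none was, against 0.294%. At 6 h 5 were called, 4 lower and 1 higher in Aim2-/- cells, against 15.8%, and at 24 h none, against 0.666%. At 3 h 3 of the genes and at 24 h 1 had an unadjusted p under 0.05, as had 2350 and 3134 of the 15325 genes tested. DESeq2 called 3 at 3 h (2.13% of all genes) and 0 at 24 h (5.95%). By the overlap of libraries alone, the CPM of the 3 Aim2-/- mice and those of the 3 WT mice were separate for 6 of the 9 genes before stimulation (28.5% of all genes), 3 after 3 h (15.1%), 6 after 6 h (35.6%) and 1 after 24 h (21.3%). Against the 2 WT mice other than WT 1, 7, 3, 7 and 1 were separate, where 44.8%, 34.1%, 50.0% and 34.3% of all genes were. Without the mouse labelled WT 1 the calls were 0, 2, 1 and 0 at 0, 3, 6 and 24 h, against 5.77%, 2.71%, 11.4% and 1.05% of all genes. Of the 6 calls made with all mice, Peli1 at 6 h was the one that held without WT 1, and none of the 6 held without WT 3, without WT 4, without Aim2-/- 1 or without Aim2-/- 4.

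Cbl was lower in Aim2-/- cells at 0 h, with a log2 difference of -0.47 ± 0.13 (adjusted p = 0.0408), from 196, 253 and 188 CPM against 314, 281 and 289 CPM, and at 6 h, with a log2 difference of -0.46 ± 0.13 (adjusted p = 0.0267). Neither call held without the mouse labelled WT 1, where the values were -0.42 ± 0.14 (adjusted p = 0.0827) and -0.43 ± 0.14 (adjusted p = 0.0592), and leaving out any other mouse but Aim2-/- 2 took them to adjusted p of up to 0.223 and 0.0936. Cblb was lower at 6 h with a log2 difference of -0.48 ± 0.15 (adjusted p = 0.0382), and -0.52 ± 0.18 (adjusted p = 0.0632) without WT 1, a call that was also lost without WT 3, WT 4, Aim2-/- 1 or Aim2-/- 4 (adjusted p up to 0.14). Its 3 Aim2-/- libraries at 6 h, 403, 586 and 459 CPM, all lay below the 3 WT ones, 646, 683 and 699 CPM. Traf6 was lower at 6 h with a log2 difference of -0.35 ± 0.11 (adjusted p = 0.0361), again without overlap, and -0.33 ± 0.12 (adjusted p = 0.0709) without the mouse labelled WT 1, and it too was lost without each of those mice (adjusted p up to 0.173).

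Peli1 passed the genotype test at 6 h with all mice and without the mouse labelled WT 1, but not without WT 3, WT 4, Aim2-/- 1 or Aim2-/- 4 (adjusted p from 0.139 to 0.153) or with only the libraries compared (0.0854). Its Aim2-/- libraries lay below all WT libraries at 0, 3 and 6 h, also below the mouse labelled WT 1, and overlapped with them at 24 h. The log2 difference was -0.30 ± 0.10 (adjusted p = 0.0714) before stimulation, -0.40 ± 0.10 (adjusted p = 0.0774) after 3 h and -0.30 ± 0.10 (adjusted p = 0.0456) after 6 h. Leaving out the mouse labelled WT 1 gave -0.47 ± 0.11 (adjusted p = 0.0354) for 3 h and -0.37 ± 0.11 (adjusted p = 0.0427) for 6 h, and scaling by library totals took the 6 h call to adjusted p = 0.0657.

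Tnfaip3 differed in the other direction. Its Aim2-/- libraries lay above all WT libraries at each of the 4 times, as the values above show. The log2 difference was 0.34 ± 0.12 (adjusted p = 0.0793) before stimulation and 0.46 ± 0.12 (adjusted p = 0.0846), 0.38 ± 0.12 (adjusted p = 0.0343) and 0.31 ± 0.12 (adjusted p = 0.15) after 3, 6 and 24 h, so that only 6 h passed, and 0.42 ± 0.14 (adjusted p = 0.0583) was the 6 h value without the mouse labelled WT 1. That call was lost whichever of the 6 mice was left out (adjusted p from 0.054 to 0.243), and with no filter (0.138). The Aim2-/- libraries of Rnf128 also lay above all WT libraries at 0, 3 and 6 h. Its largest difference, at 3 h, was 0.97 ± 0.28 (adjusted p = 0.144) with all mice, on 47 to 98 counts per WT library. It was 1.25 ± 0.31 (adjusted p = 0.0441) without the mouse labelled WT 1, whose library was the one with 98 counts. The remaining values with an unadjusted p under 0.05 were Traf6 with a log2 difference of -0.25 and Ndfip1 with a log2 difference of 0.20 at 0 h and Itch with a log2 difference of -0.33 at 6 h (adjusted p = 0.17, 0.196 and 0.107). Tnip1 was called at no time.

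**Figure D4:**
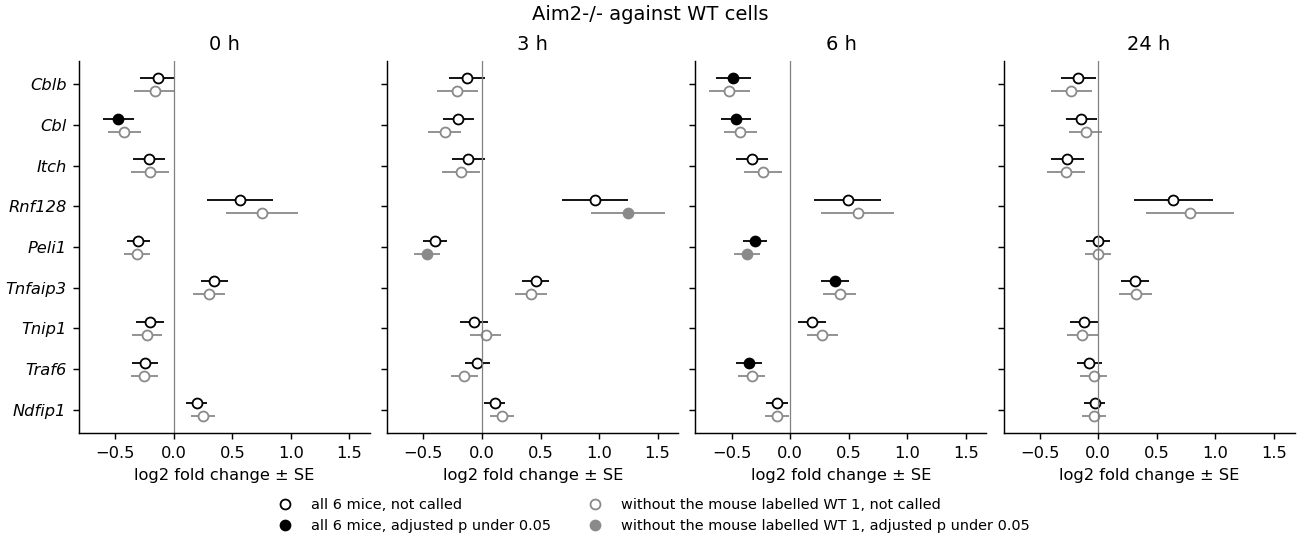
Log2 fold change ± SE of Aim2-/- against WT cells at 0, 3, 6 and 24 h, with all 6 mice (black) and without the mouse labelled WT 1 (grey), filled where the adjusted p is under 0.05. Peli1 at 6 h is the only value filled in both, and Tnfaip3 and Rnf128 lie to the right of 0 in all 4 panels.

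The size of the response did not pass a test of difference between the genotypes for any of the 9 genes. For 3 h and 24 h 0.0% of all genes passed this interaction test, and for 6 h 0.0261% did. An unadjusted p under 0.05 was seen for 0 of the 9 genes at 3 h, for Tnip1 and Ndfip1 at 6 h and for Peli1 at 24 h. Among all 15325 genes it was seen for 653, 2019 and 1825 at these times. DESeq2 called 0 of the 9 at each time. Without the mouse labelled WT 1 the test also called 0 of the 9 at each time, with 0, 2 and 0 at an unadjusted p under 0.05. For Tnip1 the Aim2-/- minus WT difference in the 6 h response was 0.39 on the log2 scale, with an interval of 0.06 to 0.72 and adjusted p = 0.321. With mouse as a block, Cblb was called at 6 h, where its fall was deeper in Aim2-/- cells with a log2 difference of -0.36 ± 0.10 (adjusted p = 0.0478), where 4.68% of all genes passed with the block. For Tnfaip3 the intervals of the difference were -0.21 to 0.43, -0.28 to 0.36 and -0.35 to 0.29 at 3, 6 and 24 h. When the 4 libraries of each mouse were summed, none of the 9 genes differed between the genotypes, against 0.0117% of 17163 genes, while 5 had an unadjusted p under 0.05 and DESeq2 called 4 (11.1% of all genes). No share of all genes is given here for the unadjusted counts of this summed test or for those without WT 1. These unadjusted counts therefore have no background to be set against. Without the mouse labelled WT 1 the summed test called none, and 4 of the 9 genes had an unadjusted p under 0.05. In the summed edgeR test with all mice, the mouse labelled WT 1 included, Tnfaip3 had 0.41 ± 0.10 (adjusted p = 0.133), Peli1 -0.28 ± 0.08 (adjusted p = 0.138), Rnf128 0.71 ± 0.22 (adjusted p = 0.152), Cbl -0.32 ± 0.09 (adjusted p = 0.144) and Traf6 -0.17 ± 0.07 (adjusted p = 0.209).

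Markers of some other cells, though not all, differed between the genotypes. At 0 h the summed CPM of 6 myeloid markers ranged from 94.7 to 343 in Aim2-/- and from 25.8 to 50.2 in WT libraries, that of 6 B cell markers from 16.2 to 42.3 against 8.36 to 10.2, that of 4 NK cell markers from 132 to 155 against 65.7 to 79.1, and that of 5 basophil and mast cell markers from 63.1 to 129 against 12.9 to 15.0. Of the NK cell markers only Eomes was separate at 0 h, with 72.7 to 99.3 against 19.2 to 45.4 CPM. Klrk1, with 29.6 to 51.0 against 26.5 to 34.1 CPM, Klrb1c and Ncr1 overlapped between the genotypes. Erythroid markers ranged from 20.6 to 332 against 7.40 to 71.5, and 2 CD8 T cell markers from 8.12 to 10.9 against 9.76 to 11.4. None of these markers was at 0 in all 3 libraries of a group. Their sums also changed over time, with B cell markers in WT cells at 8.36 to 10.2 at 0 h and 4.00 to 5.06 at 24 h, and NK cell markers at 65.7 to 79.1 and 22.3 to 30.8. Foxp3, Ikzf2 and Il2ra, markers of regulatory T cells of which Il2ra is also induced by activation, summed to 292 to 454 CPM in WT and 422 to 574 CPM in Aim2-/- cells at 0 h, and to 1128 to 1391 and 1068 to 1125 CPM at 6 h. Foxp3 alone, which defines these cells, lay between 135 and 171 CPM in the Aim2-/- libraries of 0 h against 84.9 to 117 CPM in the WT ones. It lay between 260.3 and 369 against 189 to 257 CPM at 6 h and between 66.3 and 146 against 34.5 to 62.9 CPM at 24 h. These ranges did not overlap, while those of 3 h did, 286 to 326 CPM in Aim2-/- and 209 to 329 CPM in WT cells. Ikzf2 overlapped between the genotypes at every time, with 198 to 303 against 122 to 250 CPM at 0 h. Il2ra overlapped at 0, 3 and 24 h and was lower in Aim2-/- cells at 6 h, with 547 to 684 against 852 to 948 CPM. The part of these cells in the values of the 9 genes was not tested.

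Companion genes of the same pathways were counted whole, from 5 lists of 90 genes in all, each gene of which was tested. Of 19 partners and targets of the CBL proteins, 6 were higher and 9 lower in WT cells at 3 h and 3 higher and 12 lower at 24 h, where 16.2% and 16.4% of all genes were at 3 h and 36.6% and 34.8% at 24 h, with a median log2 fold change of -0.43 at 24 h beside -0.01 for all genes. Pik3r1, the regulatory subunit of PI3 kinase, went from 332 ± 53.3 CPM at 0 h to 52.8 ± 0.573 CPM at 24 h, with a log2 change of -2.65 ± 0.13 (adjusted p = 2e-13), and Ubash3a, which binds CBL proteins through its SH3 domain, from 225 ± 40.0 CPM at 0 h to 77.1 ± 6.51 CPM at 3 h, with a log2 change of -1.54 ± 0.18 (adjusted p = 1.59e-06). Lcp2, the adaptor SLP-76, rose from 303 ± 27.6 CPM at 0 h to 902 ± 94.2 CPM at 3 h, with a log2 change of 1.57 ± 0.13 (adjusted p = 2.19e-08). Of 10 genes of the NEDD4 family and its substrates and adaptors, 1 was higher and 8 lower at 24 h, beside the same shares of all genes, led by the ligases Smurf2 with a log2 change of -1.80 ± 0.14 (adjusted p = 1.99e-10) and Smurf1 with a log2 change of -1.76 ± 0.12 (adjusted p = 4.98e-11). Nedd4 itself was the riser, with a log2 change of 1.36 ± 0.35 (adjusted p = 0.00176). In Aim2-/- cells at 24 h 2 genes of the first list were higher and 13 lower, and 1 and 7 of the second, where 36.8% and 33.5% of all genes were.

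On the NF-κB side, 7 of 32 genes of the ubiquitin network were higher and 11 lower in WT cells at 3 h, 7 and 18 at 6 h and 5 and 21 at 24 h, where 16.2% and 16.4%, 26.4% and 24.8%, and 36.6% and 34.8% of all genes were, with a median of -0.66 at 24 h. Birc2, which encodes the ligase cIAP1, was lower with a log2 change of -2.20 ± 0.11 (adjusted p = 4.42e-13) at 24 h, and Traf1 with a log2 change of -1.87 ± 0.11 (adjusted p = 3.09e-12). Otulin, which removes linear ubiquitin chains, rose from 68.4 ± 2.17 CPM at 0 h to 141 ± 6.54 CPM at 24 h, with a log2 change of 1.04 ± 0.06 (adjusted p = 7.09e-12). Of 10 NF-κB subunits and inhibitors, 1 was higher and 1 lower at 3 h, and 1 was higher and 9 lower at 24 h, beside the same shares, with a median of -0.92. Nfkbia and Nfkbiz were lower with a log2 change of -1.56 ± 0.10 (adjusted p = 2.41e-11) and -2.37 ± 0.17 (adjusted p = 5.81e-11) at 24 h, while Nfkbib was the riser with a log2 change of 0.33 ± 0.10 (adjusted p = 0.00659) and Nfkb1 rose at 3 h, with a log2 change of 0.44 ± 0.12 (adjusted p = 0.00571), though not without the mouse labelled WT 1 (adjusted p = 0.0507). In Aim2-/- cells at 24 h 6 of the network were higher and 22 lower, and 0 and 9 of the subunits and inhibitors, against 36.8% and 33.5% of all genes.

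The list of anergy genes and GRAIL partners held genes that rose and genes that fell, in shares near those of all genes at 24 h. Of its 19 genes 6 were higher and 5 lower in WT cells at 3 h, and 5 higher and 8 lower at 24 h (all genes 16.2% and 16.4%, and 36.6% and 34.8%), with medians of -0.10 and -0.18. Without the mouse labelled WT 1 the numbers higher and lower at 24 h were 2 and 12 for the CBL partners, 1 and 8 for the NEDD4 family, 4 and 20 for the ubiquitin network, 1 and 9 for the subunits and inhibitors and 5 and 8 for this list. In that fit 64.1% of all genes passed at 24 h in either direction. Egr2 and Egr3, transcription factors known to promote anergy and Cblb expression, were higher at 3 h with a log2 change of 1.51 ± 0.20 (adjusted p = 5.19e-06) and 1.65 ± 0.25 (adjusted p = 2.49e-05). At that time Rnf128 was not called and Cblb was called, as lower, only with mouse as a block. A link between Egr2 or Egr3 and these members was not tested. Dgka, a diacylglycerol kinase that dampens receptor signals, fell from 1556 ± 127 CPM at 0 h to 294 ± 25.4 CPM at 24 h, with a log2 change of -2.41 ± 0.11 (adjusted p = 8.94e-14). The checkpoint receptor Lag3 was higher at 24 h with a log2 change of 2.48 ± 0.56 (adjusted p = 0.000525), and Nt5e, which encodes CD73, was lower with a log2 change of -3.71 ± 0.35 (adjusted p = 4.57e-09). In Aim2-/- cells at 24 h 4 genes of this list were higher and 9 lower, against 36.8% and 33.5% of all genes.

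**Figure D5:**
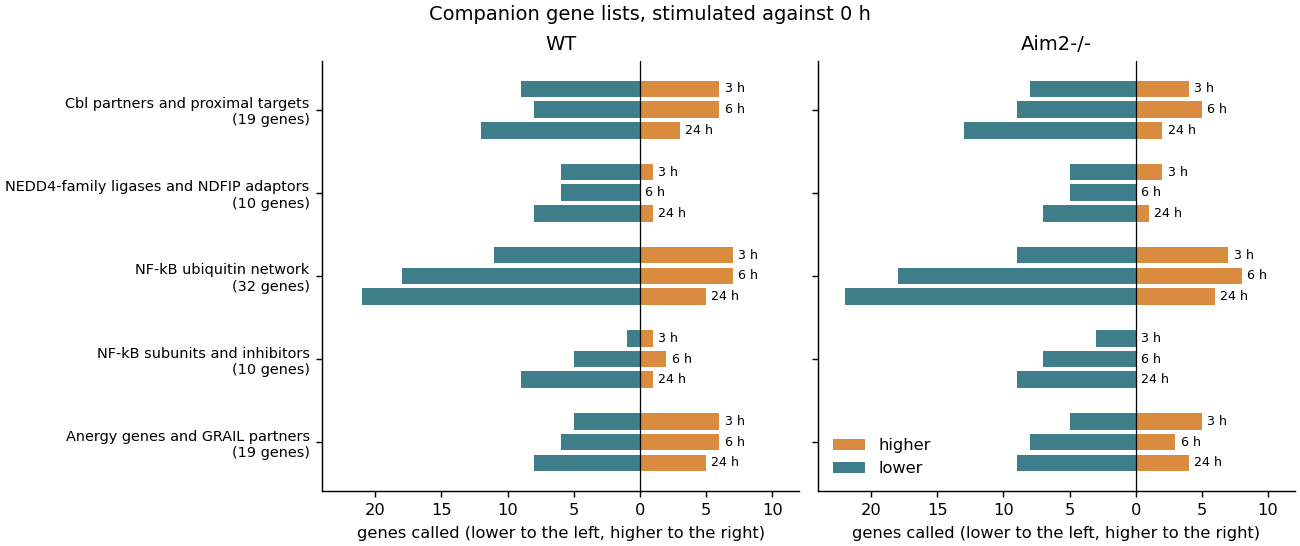
Number of genes of 5 companion lists called lower (left of the line) or higher (right) at 3, 6 and 24 h against 0 h, in WT and Aim2-/- cells. Bars to the left grow from 3 to 24 h in each list of the NF-κB arm, to 21 of 32 and 9 of 10 genes in WT cells. Of all genes, 16.4% were lower at 3 h and 34.8% at 24 h in WT cells.

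The pattern of each gene over the 8 group means was compared with 8676 other genes of at least 10 CPM by the root mean square difference of centred log2 CPM, as a description of these samples. Nearest to Tnfaip3, whose own pattern had a root mean square of 1.75, were Dusp1 (0.213), Coq8a (0.220) and Dgat1 (0.232). For Cblb they were Prkab2, Vps13d and Hivep2 (0.0984 to 0.105), for Cbl Dgkd, Trim33 and Thoc2 (0.0620 to 0.0813), and for Itch Gpatch8, Esco1 and Zfp748 (0.0416 to 0.0522). Peli1 was nearest to Zfp236, Zfp281 and Etv3 (0.122 to 0.125), Tnip1 to Elovl5, Paip2 and Ss18 (0.101 to 0.103), and Rnf128 to Il18rap, Zbtb46 and Runx2 (0.203 to 0.219). Traf6 was nearest to Rbm26, Parg and Ipo8 (0.0507 to 0.0606), and Ndfip1 to Rheb, Asb7 and Il2rg (0.0536 to 0.0730). Among the 9 genes the closest pairs were Cbl with Itch (0.156) and Traf6 with Ndfip1 (0.162). The 4 groups of a genotype come from the same 3 mice, so these distances also hold what the libraries of a mouse have in common.

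By the GENCODE annotation of GRCm38 the genes lie apart from each other, except that Peli1 and Tnip1 share chromosome 11 and Itch and Traf6 chromosome 2. Cblb spans chr16:52031225-52208048 on the plus strand, Cbl chr9:44142976-44234049 on the minus strand, Itch chr2:155133509-155226855 and Traf6 chr2:101678429-101701669 on the plus strand, and Rnf128 chrX:139563316-139673145 on the plus strand. Peli1 spans chr11:21091291-21150323 on the plus strand, Tnip1 chr11:54910785-54962917 and Tnfaip3 chr10:19000910-19015657 on the minus strand, and Ndfip1 lies on chromosome 18. Within the bounds of 7 of them lie noncoding genes, pseudogenes or an unconfirmed gene, none of which shares an exon with them, and those that have a row of counts had 0 to 18 counts over all 24 libraries, against 1921 to 311215 for the members.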

How the data were processed

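Per the labels and the general methods of the study, the authors prepared stranded mRNA libraries, aligned the single-end reads with STAR to GRCm38 and deposited raw counts per gene for 24 libraries, with no normalization. The strand setting of the counting is not given in the sources used here. DESeq2 and edgeR are named in the submitters' processing notes without a role. Symbols, positions and lengths came from GENCODE M21, which matched 54409 of 54446 identifiers, and promoter sequences from RefSeq.

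The 9 genes, the companion lists and the tests were chosen with earlier results of these data known. The main test was the quasi-likelihood F test of edgeR 4.0.16 (R 4.3.3), two-sided, with TMM scaling, the filterByExpr filter (minimum count 10) and a mean for each of the 8 groups fitted to the 24 libraries. The Benjamini-Hochberg adjustment ran over the 15325 genes tested in each comparison, and an adjusted p under 0.05 is a call. Standard errors come from the fitted change and its F value, and 95% intervals are the normal ones around it. CPM use TMM-scaled totals, and the log2 CPM of the likeness search uses a prior count of 2. The 9 genes are named in full. From each companion list, up to 2 rises and 2 falls among the called genes with the largest changes at 3 h or 24 h in WT cells could be named, with at least 10 CPM in the higher group. The 3 genes most alike to each were named among those of at least 10 CPM.

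The labels give the same mouse at all 4 times. Deviations from the group means correlated with r from 0.139 to 0.567 in 36 pairs of libraries of a mouse and from -0.432 to 0.0742 in 72 pairs of different mice of a genotype, so fits with mouse as a replicate block are given where they change a call. Mouse numbers do not pair the genotypes. Alternatives were RLE factors, library totals, DESeq2 1.42.0, limma-voom (limma 3.58.1), no filter, a mean of at least 1 CPM, only the libraries compared and each mouse left out. All were fixed together with the tests. The procedure was tested on simulated data. Totals of 19715161 to 21627018 counts make 3 counts equal to 0.139 to 0.152 CPM, which covers counting error only.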

Additional observations from a re-analysis of the deposited data

How the results depend on the processing

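The numbers of the 9 genes called against 0 h stayed within 1.5 times under every alternative, except that 2 passed at 3 h in WT cells without WT mouse 3 (2 to 5 over the mice left out) and 5 at 3 h in Aim2-/- cells with mouse as a replicate block. From 3 to 6 h the block gave 5 in WT cells. In Aim2-/- cells over that step 5 passed with RLE factors, with no filter, with a mean of at least 1 CPM and with DESeq2, 6 with the block and 1 with only the libraries compared, and 1 to 3 when a mouse was left out. The genotype counts moved most, and the share of all genes called moved with the setting too. At 0 h that share was 5.23% in the main fit and 5.77% without WT 1, and at 6 h 15.8% and 11.4%. At 3 h it was 0.294%, 2.13% with DESeq2 and 2.71% without WT 1, and at 24 h 0.666%, 5.95% and 1.05%. With no filter 604 of 31367 genes were higher and 171 lower at 3 h. The share with the number block is not given here. For the 9 genes the counts at 0 h were 3 with DESeq2, 0 with only the libraries compared, 6 with mouse number as a replicate block and 0 to 2 without a mouse. At 3 h they were 2 with no filter, 3 with DESeq2, 5 with the number block and 0 to 2 without a mouse. At 6 h they were 1 with only the libraries compared and 0 to 5 without a mouse, with 0 without WT 3, WT 4, Aim2-/- 1 or Aim2-/- 4. At 24 h the number block gave 2, and leaving out a mouse 0 to 1. The genotypes have only numbers 1 and 4 in common, and no label ties such mice together, so the number block is no pairing. For the genotype difference in the 6 h response the block gave 1, Cblb. With the libraries of a mouse summed, DESeq2 gave 4 and leaving out a mouse 0 to 4, the latter without Aim2-/- 2. The causes were not tested, beyond the fewer libraries that some of these fits hold.

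Of the single changes that passed against 0 h or between times, all kept their direction. Reversed signs were found only for changes that had not passed. For Traf6 at 3 h in WT cells the value was 0.014 with library totals and ran from -0.21 to 0.010 over the mice left out. For Traf6 at 6 h in Aim2-/- cells it was -0.0245 with RLE factors and with DESeq2, -0.00235 with no filter and -0.0018 with only the libraries compared, and from -0.025 to 0.086 over the mice left out. For Traf6 at 24 h in Aim2-/- cells it was -0.045 with RLE factors and with DESeq2, -0.028 with no filter and -0.014 with only the libraries compared, and from -0.038 to 0.097 over the mice left out. At 3 h in Aim2-/- cells library totals gave 0.062 for Cbl and 0.076 for Rnf128, and leaving out a mouse gave -0.17 to 0.040 for Rnf128 and -0.047 to 0.13 for Ndfip1. For Ndfip1 at 24 h in WT cells leaving out a mouse gave -0.18 to 0.012. Depth limits Rnf128 most, which had 10 to 30 counts per library at 24 h.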
